A study of Mus musculus with 8 samples.

Results

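Short, well-counted 3' untranslated regions (3' UTRs) were examined in RNA that came down with an antibody against CPEB2 from mouse mammary cells. The 229 members are the rows of the deposited table with a length under 400 bases and a mean normalized count of at least 43, leaving out genes whose symbols mark ribosomal proteins (Rpl, Rps) or the respiratory chain and ATP synthase (Nduf, Sdh, Uqcr, Cox, Atp5). They were taken from 20586 rows, each of them the 3' UTR of 1 transcript. The members were chosen by row length and by mean count over all libraries, IP included, with earlier results of these data known. The limits themselves use no difference between groups. The table held 6840 rows under 400 bases, of which 6594 fell under the count limit, and 17 of the remaining 246 were left out by symbol. The authors adjusted the p of all 229 members and of 5098 other rows, here called tested rows.

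The 8 libraries form 4 groups of 2, namely immunoprecipitate (IP) from Cpeb2 knockout (KO) cells, IP from wild-type (WT) cells, KO Input and WT Input, where Input is the RNA of the starting lysate. The strain label of all groups is C57BL/6J 129, no treatment was given, and neither the age of the mice nor the deleted part of Cpeb2 is given in the sources used here. Cells were freshly isolated from mammary glands with enzymes, red cells were lysed, and the fraction enriched in epithelial cells was used directly. The same anti-CPEB2 antibody was used on both genotypes, so the KO IP holds RNA recovered in cells labelled as lacking its target. Poly(A) purification was applied to Input only, per the labels, so each IP to Input difference also holds the difference between selected and unselected RNA. Each group holds 1 library of RIP experiment 2, from cell preparation 3, and 1 of RIP experiment 3, from cell preparation 4. Whether the authors' test took account of the experiment is not stated in the sources used here. The labels do not say that the 2 cell preparations of a genotype came from different animals, so p-values measure the spread between libraries, which may be technical.

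CPEB2 belongs to a family of RNA-binding proteins that recognise the cytoplasmic polyadenylation element, a U-rich motif in 3' UTRs. Members of this family recruit or repress the machinery that lengthens poly(A) tails and so change how well an mRNA is translated. A 3' UTR also carries the polyadenylation signal, the hexamer near the end of the mRNA that directs cleavage, and a short one leaves little room for other elements.

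No genome came with the data, and the 3' UTR sequences of the members are not shown here. One end could be read, that of Rnasek, named for ribonuclease kappa, because the promoter window of a neighbouring gene in RefSeq runs across it. These last 30 bases of the row, on build GRCm38.p6 at chr11:70238124-70238153 on the minus strand, are shown to make visible how close the signal lies to the end of such a row.
Rnasek: actacAATAAAaagaagcggttccccctaa
The capitals mark AATAAA, the polyadenylation signal, at bases 6 to 11, and 19 bases follow it. The 30 bases hold neither TTTTAT nor TTTTAAT, the DNA letters of cytoplasmic polyadenylation elements, on the printed strand, the only strand searched. Neither of these 2 motifs contains the other. In the same 30-base stretch of 32851 RefSeq promoter windows, AATAAA occurred in 1.38%, TTTTAT in 1.09% and TTTTAAT in 0.365%.

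The members were short by choice, at 30 to 398 bases with a median of 291, while the other tested rows had a median of 1891 bases. Their mean normalized count, over all libraries, ran from just over the limit of 43 to 260, with a median of 65.6, against 106 in the other tested rows. Per 100 bases the median count was 25.8 in members and 6.36 in the others. The members belong to 225 genes on 21 chromosomes, with 33 on chromosome 7, 27 on chromosome 11 and 22 on chromosome 2. Of the members, 108 lie on the plus strand and 121 on the minus strand. Of the 229, 16 carry no symbol of their own and are mostly shorter or alternative 3' UTRs of a named gene, such as Hspa1a, Jun or Shisa5. One of these is described as ribosomal protein L13A and is a member only because its symbol is missing. The 25 gene lists used below hold 99 of the members, and 130 are in no list.

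Libraries were checked as groups, since the table gives 1 log2 value per group. The row of Cpeb2 itself is long and no member. The authors' log2 values for Cpeb2 were 7.43 in KO IP, 9.64 in WT IP, 5.98 in KO Input and 6.11 in WT Input. With the deleted part of the gene not given, its 3' UTR level in KO Input does not check the genotype. No luminal or basal epithelial marker was at 0 in all groups. The 12 luminal markers had summed levels, back-transformed from the log2 values, of 4565 in KO IP, 5263 in WT IP, 4254 in KO Input and 4071 in WT Input. Prlr, a row of 7742 bases, alone held 2293 in KO IP and 2505 in WT IP. Of the luminal members, Krt8, Krt18, Krt19 and Ly6d were lower in WT IP than in KO IP, and Cldn3 was higher. The 9 leukocyte markers summed to 248 in KO IP, 116 in WT IP, 312 in KO Input and 212 in WT Input. The 4 red cell markers summed to 23.6 in KO IP, 8.42 in WT IP, 141 in KO Input and 98.1 in WT Input. Both sums were thus higher in KO in IP and in Input. Cd3e was an exception in IP, with log2 values of 1.62 in KO IP and 2.53 in WT IP. Most of these rows were low, and only 2 leukocyte and 0 red cell markers had an adjusted p. The part of these cells in the members' values was not tested. Adipocyte markers summed to 1188 in KO IP, 1245 in WT IP, 721 in KO Input and 562 in WT Input, and the sums of fibroblast and endothelial markers are given beside the rows they touch. In bulk samples, fewer cells of a type and less RNA per cell cannot be told apart.

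In the median, the short 3' UTRs stood below their Input in both genotypes, and further below it in WT. The median log2 difference of IP and Input over the 229 members was -0.40 in KO and -0.81 in WT, against 0.17 in KO and 0.34 in WT over the other tested rows. In the IP itself, 168 of the 229 members (73.4%) had a higher value in KO than in WT, with a median KO minus WT difference of 0.36, where the other rows had -0.15. In Input the corresponding medians were -0.04 for members and 0.09 for the other rows. These are differences of single values per group, with no error and no test.

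The interaction deposited by the authors is the IP over Input difference in WT minus that in KO, on the log2 scale, so a negative value means that IP over Input was higher in KO. In the authors' deposited table its median was -0.41 over the members, with quartiles of -0.68 and 0.004, and 0.25 over the other tested rows. Only 58 members (25.3%) lay above 0, against 66.9% of the other rows. The median over all 5327 tested rows was 0.23, so relative to it the members' median was -0.64. The 17 short rows left out for their ribosomal or respiratory symbols had a median of -0.73, with 2 above 0.

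Across the table the interaction was higher in longer rows. The median was -0.56 for 47 tested rows under 200 bases, -0.49 for 87 rows of 200 to 299 bases and -0.33 for 112 rows of 300 to 399 bases, these 3 bins including the 17 rows left out by symbol. It was -0.28 at 400 to 599 bases, 0.01 at 800 to 1199 bases and 0.52 at 3000 bases or more. The members' limit of 400 bases is therefore not a step in the data. Within the members the order was nearly lost, with a Spearman correlation of interaction and length of 0.08 over 229 rows, against 0.39 over 5327 rows. These are descriptions across rows of the same 8 libraries, which share their depth and their normalization.

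**Figure D1:**
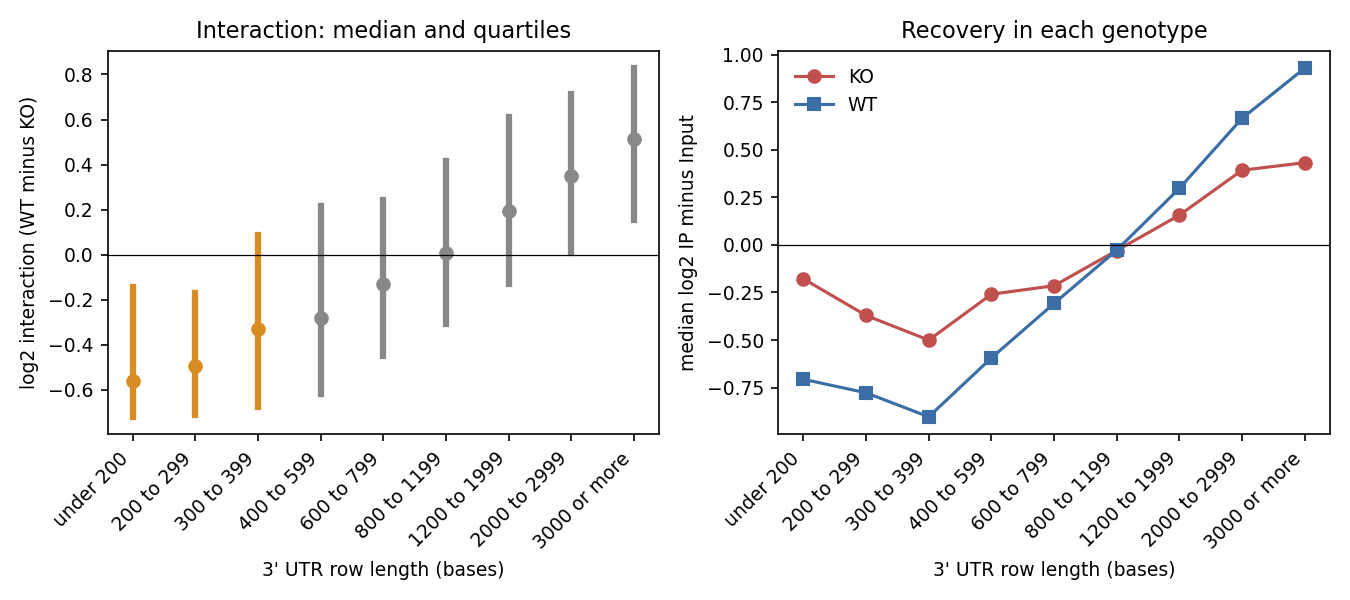
Left, the authors' log2 interaction (WT minus KO) by 3' UTR length in bases, with points at the median and bars from the first to the third quartile, and with the 3 bins under 400 bases in orange. Right, the median log2 IP minus Input in KO (red circles) and WT (blue squares) for the same bins of all tested rows. The medians run between -0.56 under 200 bases and 0.52 at 3000 bases or more, and WT lies below KO in the short bins and above KO in the long ones.

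The members' median interaction was much the same at each level of mean count. Members with a count of 43 to 60 had a median interaction of -0.46 (99 rows), those of 60 to 100 had -0.31 (77 rows), those of 100 to 200 had -0.48 (47 rows), and the 6 above 200 had -0.41. In the same bins the other tested rows had medians of 0.12, 0.20, 0.28 and 0.35. All 4 member medians lay below 0 and all 4 of the other rows above it. Recovery, in contrast, rose with count. The members' median IP minus Input was -0.52 in KO and -1.03 in WT at 43 to 60, and -0.37 and -0.78 at 60 to 100. It was -0.05 and -0.32 at 100 to 200, and 0.62 and 0.36 in the 6 rows above 200. The mean count includes the IP libraries, so a row of high recovery tends to a higher count, and this rise is partly built in. For the other tested rows the median was 0.04 in KO and 0.15 in WT at 43 to 60. Above 200 it was 0.23 and 0.45. The authors' standard errors were larger for members, with a median of 0.56 against 0.49 in the other rows, so single members were measured less precisely.

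By the sign of IP minus Input in each genotype, 157 members (68.6%) were below Input in both, against 33.5% of the other tested rows. Another 35 (15.3%) were above Input in both, against 51.2%. There were 29 (12.7%) above Input in KO and below it in WT, and 8 (3.49%) the other way round. For the other rows these shares were 5.59% and 9.63%. The 29 include the polyubiquitin gene Ubb, the keratins Krt8 and Krt18, the ferritin heavy chain gene Fth1 and the metallothionein gene Mt1. The 8 include Stx4a, Krt5, Ddx47, Gas6, Grb7, Esyt1 and Tpra1. Recovery was related between genotypes, with a Spearman correlation of IP minus Input in KO and in WT of 0.76 over the 229 members. Over all 5327 tested rows it was higher, at 0.86.

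**Figure D2:**
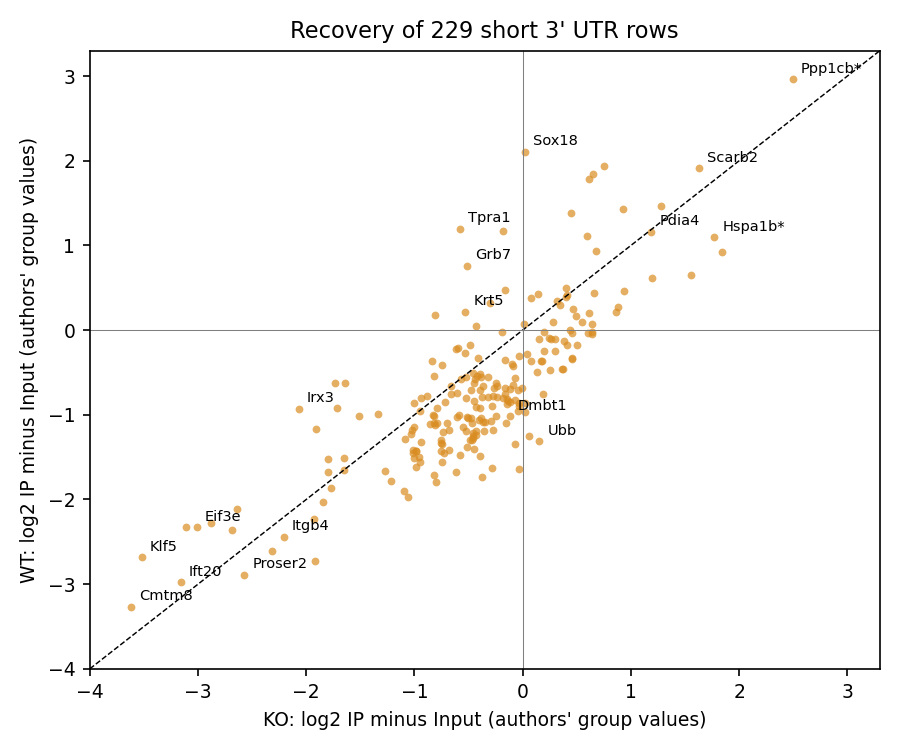
Each point is 1 of the 229 members, with log2 IP minus Input in KO on the x axis and in WT on the y axis, and the dashed line marks equal values. A star marks a row with no symbol of its own, named by its gene. Of the members, 157 lie at the lower left, below 0 on both axes, most of them under the line, and Sox18 and Tpra1 stand above it.

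At a size of at least 1 on the log2 scale, 38 members (16.6%) were below Input in KO, against a background of 17% of all tested rows, and 92 (40.2%) in WT, against 15.7%. Those at least 1 above Input numbered 8 (3.49%) in KO, against a background of 17%, and 14 (6.11%) in WT, against 28.1%. The members' share below Input thus lay near the background in KO and exceeded it in WT. Between IPs, 12 members (5.24%) were at least 1 higher in KO than in WT, against a background of 0.845%, and 7 (3.06%) were at least 1 lower, against 6.78%. In Input no member differed by 1 or more between genotypes, where the background was 0.188% higher in KO and 0% lower.

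By the authors' Wald test, 1 member passed an adjusted p of 0.05 with a higher IP over Input in WT, and none with a lower one, against a background of 2.25% and 0% of tested rows in the authors' deposited table. At an unadjusted p under 0.05 the table gave 8 members (3.49%) higher in WT and 12 (5.24%) lower, against a background of 12.5% and 1.09%. The 1 member that passed is Sox18. No other member passed, and the values that follow are given as measured.

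Sox18 encodes a SOX transcription factor of blood and lymphatic endothelium. Its 3' UTR row of 367 bases lies at chr2:181669836-181670202 on the minus strand of mm10. The authors' log2 values for Sox18 were 4.71 in KO IP, 6.94 in WT IP, 4.69 in KO Input and 4.83 in WT Input. The WT IP stood alone, with a KO IP minus WT IP difference of -2.22, while the 3 other values lay within 0.14 of each other. In the authors' deposited table the interaction of Sox18 was 2.14 ± 0.62 (standard error), with a 95% interval of 0.92 to 3.37 and an adjusted p of 0.0347 by the Wald test. Its mean normalized count was 49.9, near the lower limit. The call of Sox18 was lost when the tested rows' median was subtracted from the authors' deposited values, where the Wald test gave an adjusted p of 0.163, and when every row with a p entered the adjustment, where it gave 0.109.

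Sox18 is also 1 of 8 endothelial markers listed for the check of cell types. Of these 8, 7 had an adjusted p and none was at 0. Their summed level was 1137 in KO IP, 2186 in WT IP, 1696 in KO Input and 1495 in WT Input. Among the same markers, Flt1, a VEGF receptor, and Cdh5, the cadherin of endothelial junctions, also passed, with interactions of 1.49 ± 0.37 and 1.32 ± 0.38 in the authors' deposited table and adjusted p of 0.00861 and 0.0347 by the Wald test. The 5 others did not pass, with Kdr at 1.24, Pecam1 at 0.86, Esam at 0.08 and Cldn5 at -0.10 in the authors' deposited table, and Egfl7, which has no adjusted p, at -0.38. The median interaction of the 7 tested endothelial markers was 1.24 in the authors' deposited table. The part of endothelial RNA in the Sox18 result was not tested.

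The 7 other members with an unadjusted p under 0.05 and a higher IP over Input in WT are rows of 5 genes, and none passed the adjusted threshold. Tpra1, a transmembrane protein first named from adipocytes, had authors' log2 values of 4.68 in KO IP, 6.48 in WT IP, 5.26 in KO Input and 5.28 in WT Input. As with Sox18, its 2 Inputs were level, and KO IP minus WT IP was -1.80. The interaction of Tpra1 in the authors' deposited table was 1.76 ± 0.64, with an adjusted p of 0.146 by the Wald test. Esyt1, which tethers the endoplasmic reticulum to the plasma membrane, had 5.28 in KO IP, 6.39 in WT IP, 5.47 in KO Input and 5.22 in WT Input. Grb7, an adaptor that binds receptor tyrosine kinases such as ERBB2, had 4.85 in KO IP, 6.31 in WT IP, 5.36 in KO Input and 5.55 in WT Input. Stx4a, a syntaxin of vesicle fusion at the plasma membrane, had 5.57 in KO IP, 6.70 in WT IP, 6.38 in KO Input and 6.52 in WT Input. In each of these 3 the WT IP was the highest of the 4 values, and the adjusted p in the authors' deposited table was 0.249, 0.295 and 0.349 by the Wald test.

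Of the 8, 3 are rows of Shisa5, a membrane protein of the endoplasmic reticulum and nuclear envelope. They start at the same base and nest in each other at 247, 305 and 316 bases, so they share reads and count as 1 observation. The row of 305 bases had authors' log2 values of 6.57 in KO IP, 7.54 in WT IP, 5.93 in KO Input and 5.69 in WT Input. In the authors' deposited table the interactions of the 3 Shisa5 rows were 1.12, 1.14 and 1.11, while the full Shisa5 row of 1016 bases, which contains them, had 0.56. Other members high in WT were Ltbp4, which holds latent TGF-beta in the matrix, at 0.95 ± 0.50, Fam65a (now Ripor1), at 1.15 ± 0.65, and Irx3, a homeobox factor, at 1.13 ± 0.67 in the authors' deposited table. None of these passed the test. Irx3 and Fam65a were below Input in both genotypes, and less so in WT.

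**Figure D3:**
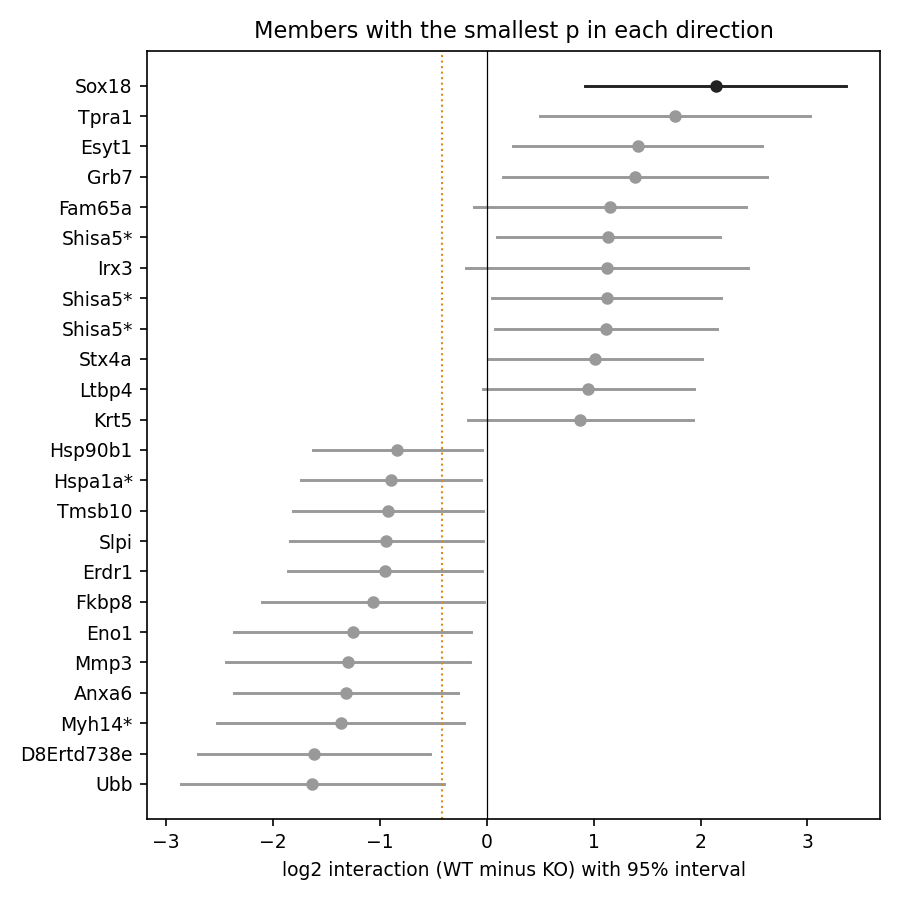
The authors' log2 interaction (WT minus KO) with its 95% interval for the 12 members with the smallest p in each direction, with Sox18, the only member with an adjusted p under 0.05, in black and the median of all members as a dotted orange line. A star marks a row with no symbol of its own, named by its gene. Sox18 lies at 2.14 and Ubb at -1.63, and the intervals of Fam65a, Irx3, Ltbp4 and Krt5 cross 0.

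In the other direction, 12 members had an unadjusted p under 0.05. Ubb, a polyubiquitin gene, had authors' log2 values of 6.15 in KO IP, 5.10 in WT IP, 6.003 in KO Input and 6.42 in WT Input. Its KO IP lay above its WT IP and its KO Input below its WT Input. The interaction of Ubb in the authors' deposited table was -1.63 ± 0.63, with a 95% interval of -2.86 to -0.40 and an adjusted p of 0.178 by the Wald test. D8Ertd738e had 6.13 in KO IP, 4.82 in WT IP, 6.17 in KO Input and 6.46 in WT Input, with an interaction of -1.62 ± 0.55 and an adjusted p of 0.109 by the Wald test in the authors' deposited table. Its WT IP was the 1 value that stood apart, more than 1 below the others.

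Anxa6, an annexin that binds membranes in the presence of calcium, had 6.20 in KO IP, 5.15 in WT IP, 6.57 in KO Input and 6.88 in WT Input. Mmp3, the matrix protease stromelysin, had 5.89 in KO IP, 5.03 in WT IP, 5.83 in KO Input and 6.28 in WT Input. Eno1, the glycolytic enzyme enolase, had 6.07 in KO IP, 5.01 in WT IP, 6.14 in KO Input and 6.35 in WT Input. In all 3 the WT IP was the lowest value and the WT Input the highest. In the authors' deposited table the interactions were -1.32 ± 0.54 for Anxa6, -1.29 ± 0.58 for Mmp3 and -1.25 ± 0.57 for Eno1.

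Slpi, a secreted inhibitor of leukocyte proteases, had 6.93 in KO IP, 5.97 in WT IP, 6.74 in KO Input and 6.72 in WT Input. Tmsb10, a thymosin that holds actin monomers, had 6.85 in KO IP, 6.01 in WT IP, 6.90 in KO Input and 6.97 in WT Input. Both had level Inputs, within 0.07 of each other, and a WT IP well below the KO IP. Erdr1 differed from these in lying above Input in both genotypes, with 7.92 in KO IP, 6.84 in WT IP, 6.08 in KO Input and 5.92 in WT Input. A row of Myh14, a non-muscle myosin heavy chain, had 5.86 in KO IP, 4.51 in WT IP, 6.14 in KO Input and 6.13 in WT Input and lies inside the symbol row of Myh14, with the same interaction of -1.37 for both in the authors' deposited table. Adjusted p over these 12 members ran between 0.109 and 0.348 by the Wald test in the authors' deposited table, so none passed.

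**Figure D4:**
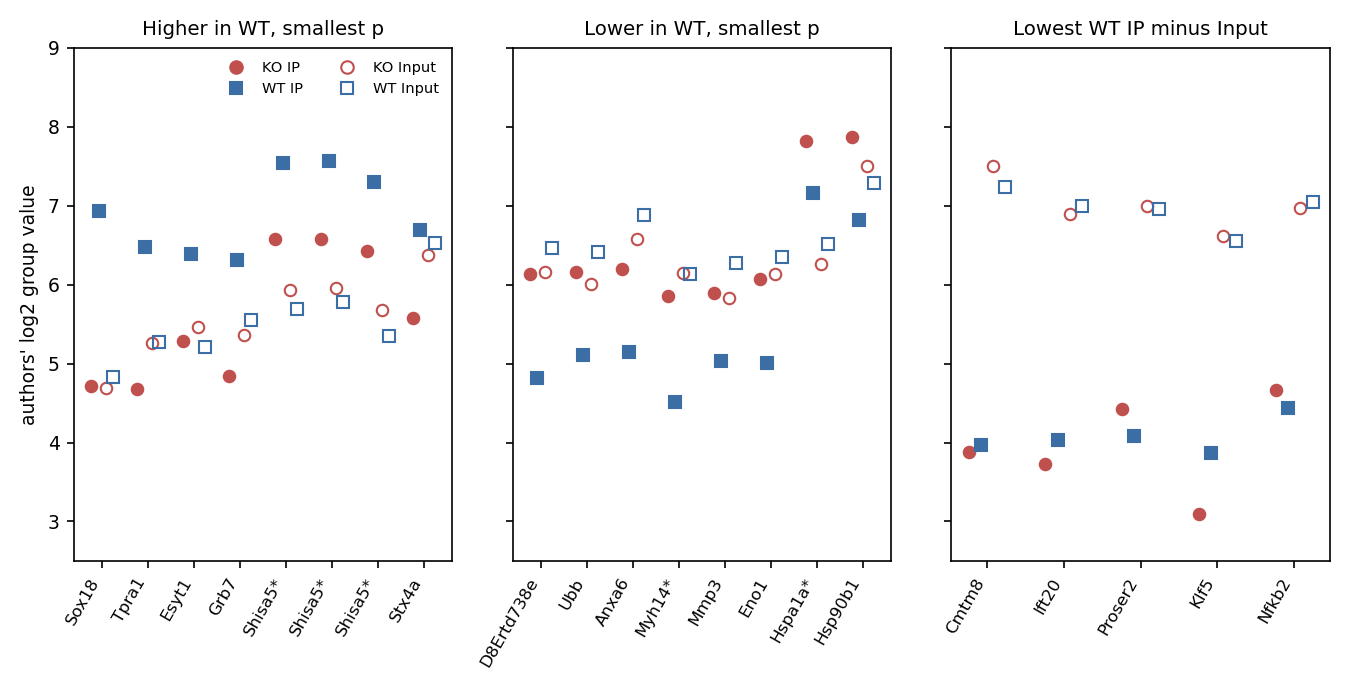
The authors' log2 value of each group for the 8 members with the smallest p higher in WT (left), the 8 with the smallest p lower in WT (middle) and 5 of the 6 with the lowest WT IP minus Input (right). Filled symbols are IP and open symbols Input, with KO as red circles and WT as blue squares, and a star marks a row with no symbol of its own. The WT IP of Sox18 lies at 6.94 while its 3 other values lie under 5, and on the right both IPs of each member lie below both Inputs.

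Gene groups were described by the members of fixed lists, with the same over each list's other tested rows. Counts by sign are to be read beside all 229 members, of which 25.3% lay above 0. The other rows of the lists were longer. Their median length was 1148 bases for chaperones, 1949 for tubulins and motors, and 800 for S100 and annexins. Across the table the interaction was higher in longer rows, and the part of length in these gaps was not tested. Heat shock chaperones and folding factors had the most members. Of 12 rows, 11 had an interaction at or below 0 and 3 had an unadjusted p under 0.05, with a median of -0.53 against -0.18 over 47 other tested rows of the list in the authors' deposited table. These rows differed from most members in that 9 of 12 lay above Input in KO and 8 of 12 in WT. Hsp90b1, the HSP90 of the endoplasmic reticulum, had 7.88 in KO IP, 6.82 in WT IP, 7.51 in KO Input and 7.28 in WT Input. Fkbp8, a membrane immunophilin, had 5.96 in KO IP, 5.21 in WT IP, 6.57 in KO Input and 6.88 in WT Input, below Input in both genotypes. Pdia4, a disulfide isomerase, had 7.13 in KO IP, 6.62 in WT IP, 5.94 in KO Input and 5.46 in WT Input, more than 1 above Input in both genotypes and with an interaction of -0.06 ± 0.61 in the authors' deposited table.

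Hspa1a and Hspa1b, the stress-inducible HSP70 genes, entered through alternative rows of 59 and 81 bases. Hspa1a had authors' log2 values of 7.81 in KO IP, 7.17 in WT IP, 6.26 in KO Input and 6.51 in WT Input. Hspa1b had 8.35 in KO IP, 7.68 in WT IP, 6.57 in KO Input and 6.58 in WT Input. Both were above Input in both genotypes and higher in KO IP than in WT IP, with interactions of -0.90 ± 0.43 and -0.68 ± 0.39 in the authors' deposited table. Their longer rows gave -0.77 and -0.73 in the authors' deposited table. The 2 genes are near-identical, and how reads were split between them is not given, so their separate values are uncertain.

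Among cytoskeletal genes, 6 of 7 actin and myosin rows had an interaction at or below 0, with a median of -0.69 against -0.08 over 59 other rows of the list in the authors' deposited table. Pfn1, which binds actin monomers, was the 1 row of this list above Input, with 8.40 in KO IP, 7.94 in WT IP, 7.21 in KO Input and 7.32 in WT Input. Myl6, a myosin light chain, had 6.38 in KO IP, 5.60 in WT IP, 6.42 in KO Input and 6.31 in WT Input. Cfl1, which severs actin filaments, had 7.39 in KO IP, 7.15 in WT IP, 7.85 in KO Input and 7.77 in WT Input and an interaction of only -0.15 ± 0.43 in the authors' deposited table. All 4 rows of tubulins and microtubule motors were at or below 0, with a median of -0.64 against 0.10 over 22 other rows in the authors' deposited table. They were Tubb2a, Tubb6, the dynein light chain gene Dynlrb1 and the dynein heavy chain gene Dync1h1, and all were below Input in both genotypes.

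Keratins split by row. In the authors' deposited table the median interaction of 6 members was -0.75, with 5 at or below 0. Krt8 and Krt18, the luminal pair, had KO IP values above WT IP values. Krt8 had authors' log2 values of 8.05 in KO IP, 7.39 in WT IP, 7.55 in KO Input and 7.57 in WT Input. Krt18, on a row of 65 bases, had 6.29 in KO IP, 5.45 in WT IP, 5.84 in KO Input and 5.79 in WT Input. Their Inputs were level between genotypes, and both lay above Input in KO and below it in WT. Krt14, a basal keratin, had 5.84 in KO IP, 5.21 in WT IP, 6.20 in KO Input and 6.40 in WT Input, below Input in both genotypes.

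Krt5, its basal partner, had an interaction of the opposite sign. Krt5 had authors' log2 values of 6.08 in KO IP, 7.52 in WT IP, 6.62 in KO Input and 7.30 in WT Input. KO minus WT was -1.43 in IP and -0.68 in Input, and its interaction was 0.87 ± 0.54 in the authors' deposited table, with an adjusted p of 0.501 by the Wald test. The summed level of the 9 basal markers was 1197 in KO IP, 1310 in WT IP, 1846 in KO Input and 1942 in WT Input. The part of basal cell numbers in the Krt5 values was not tested.

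Of 8 epithelial surface and secreted products, 1 lay above 0, where 25.3% of all members did. The 4 junction and surface members, Cd9, Cldn3, Itgb4 and Itgb5, were all at or below 0, with a median of -0.40 against 0.22 over 44 other rows in the authors' deposited table. Cd9, a tetraspanin, was above Input in both genotypes, with 8.08 in KO IP, 7.61 in WT IP, 7.21 in KO Input and 7.40 in WT Input. Cldn3, a tight junction claudin, had 6.77 in KO IP, 7.02 in WT IP, 6.47 in KO Input and 7.13 in WT Input, so that both its IP and its Input were lower in KO. Of the 4 milk and secretory products, the iron-carrying proteins Lcn2 and Trf had interactions of -0.93 ± 0.49 and -0.88 ± 0.62 in the authors' deposited table. Glycam1, a mucin of milk, had 6.46 in KO IP, 6.90 in WT IP, 6.05 in KO Input and 6.40 in WT Input, with an interaction of 0.11 ± 0.50 in the authors' deposited table. Wfdc18, a secreted whey acidic protein domain gene, had -0.10 ± 0.62 in the authors' deposited table.

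Dmbt1, a secreted scavenger receptor protein in no list, had the highest KO minus WT difference among members in both IP and Input. Dmbt1 had authors' log2 values of 7.26 in KO IP, 5.67 in WT IP, 7.38 in KO Input and 6.68 in WT Input. Its difference of 1.59 in IP came beside 0.70 in Input, and its interaction was -0.87 ± 0.46 in the authors' deposited table, with an adjusted p of 0.395 by the Wald test. Ly6d, listed as a luminal marker, had 7.02 in KO IP, 5.95 in WT IP, 7.31 in KO Input and 7.02 in WT Input. Both genes were below Input in both genotypes. Spint2, an epithelial inhibitor of serine proteases, had 7.64 in KO IP, 8.34 in WT IP, 7.04 in KO Input and 7.23 in WT Input, above Input in both genotypes and higher in WT IP.

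Matrix and secreted regulators had 6 members, all at or below 0, with a median of -0.59 against -0.11 over 61 other rows of the list in the authors' deposited table. Lama5, a laminin chain of the basement membrane, had 6.07 in KO IP, 5.06 in WT IP, 6.07 in KO Input and 5.74 in WT Input. Igfbp6, which binds insulin-like growth factors, had 6.45 in KO IP, 5.98 in WT IP, 6.84 in KO Input and 6.89 in WT Input. Apoe, the lipid carrier, had 5.33 in KO IP, 4.78 in WT IP, 6.09 in KO Input and 6.08 in WT Input. In all 3 the WT IP was the lowest value. Gsn, an actin-severing protein listed as a fibroblast marker, had the highest mean count of the members at 260, with 8.52 in KO IP, 7.72 in WT IP, 7.87 in KO Input and 7.77 in WT Input. The 8 fibroblast markers summed to 4134 in KO IP, 2831 in WT IP, 4373 in KO Input and 3794 in WT Input, and the part of fibroblast RNA in these rows was not tested.

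Metabolic and redox genes lay mostly on the same side, with Mgst1 the 1 exception among the redox members, near 0 and below it once the tested rows' median was subtracted. The 3 glycolytic enzymes Eno1, Gpi1 and Aldoa had a median interaction of -0.84, against -0.76 over 9 other rows of the list with a median length of 889 bases, in the authors' deposited table. The other glycolytic rows thus had a median nearly as low on longer 3' UTRs. The 6 mitochondrial members outside the excluded symbols, among them Phb2 and Slc25a3, were all at or below 0 and all below Input in both genotypes, with a median of -0.45 against 0.05 over 36 other rows in the authors' deposited table. Gpx1, a glutathione peroxidase, had 5.60 in KO IP, 4.57 in WT IP, 6.40 in KO Input and 6.37 in WT Input. The metallothioneins, which bind zinc and copper, were above Input in KO. Mt1 had 7.86 in KO IP, 6.997 in WT IP, 7.22 in KO Input and 7.02 in WT Input, and Mt2 had 7.88 in KO IP, 7.20 in WT IP, 6.99 in KO Input and 6.92 in WT Input.

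The ferritin rows, of the iron storage protein, had a median of -0.63 over 3 rows in the authors' deposited table, where Fth1 had 7.12 in KO IP, 6.68 in WT IP, 6.51 in KO Input and 6.71 in WT Input. Ftl1 entered with 2 rows that share 162 bases, with interactions of -0.48 and -0.65 in the authors' deposited table. Ferritin, Eef1a1, Ppia and the tubulins have near-identical copies in the genome, so their rows are uncertain. Eef1a1, the elongation factor that brings aminoacyl-tRNA to the ribosome, had 7.996 in KO IP, 7.26 in WT IP, 7.54 in KO Input and 7.58 in WT Input. Of the 4 translation members, 2 were above 0, namely Eif3e at 0.65 ± 0.81 and Eif1b at 0.41 ± 0.62, against 8 of 31 other rows of the list in the authors' deposited table.

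Protein turnover and the lysosome gave 3 more small lists. Of the ubiquitin family, Ubb and the ubiquitin-like Nedd8 were below 0, Nedd8 at -0.67 ± 0.64 in the authors' deposited table. Of 3 proteasome members, Psmd3 and Pomp were below 0 and Psma4, a core subunit, was at 0.92 ± 0.60 in the authors' deposited table. Psma4 had authors' log2 values of 5.25 in KO IP, 5.94 in WT IP, 6.88 in KO Input and 6.56 in WT Input. Of 8 lysosomal members, all below Input in both genotypes, 6 were at or below 0, a share near that of all members. Their median was -0.55 against -0.13 over 21 other rows, with a median length of 1176 bases, in the authors' deposited table. The 2 above 0 were subunits of the proton pump of acidic compartments, Atp6v1b1 at 0.81 ± 0.59 and Atp6v1h at 0.10 ± 0.62, while Atp6v0b was at -0.76 ± 0.55 in the authors' deposited table. Ctsz, a cathepsin, had 6.29 in KO IP, 5.60 in WT IP, 7.01 in KO Input and 7.05 in WT Input.

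Calcium-binding S100 and annexin genes had 6 members, 5 of them at or below 0, with a median of -0.50 against 0.16 over 10 other rows in the authors' deposited table. S100a6 had 6.50 in KO IP, 5.64 in WT IP, 6.24 in KO Input and 6.11 in WT Input. Anxa1 and Anxa2 had interactions of -0.42 ± 0.42 and -0.57 ± 0.41 in the authors' deposited table. Entry to the secretory pathway had 4 members by symbol, all at or below 0. They are the signal recognition particle genes Srp14 and Srp19, the signal peptidase subunit gene Spcs1, and Ssrp1, which matched by its prefix alone and encodes a chromatin protein of the FACT complex. Immune rows were few, with Ifitm3, an interferon-induced membrane protein, and Ifi205 below 0, and C1qbp, matched by prefix, a mitochondrial protein. Ccl2, a monocyte chemokine, had 8.23 in KO IP, 8.41 in WT IP, 7.55 in KO Input and 7.47 in WT Input, above Input in both genotypes and with an interaction of 0.26 ± 0.38 in the authors' deposited table.

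**Figure D5:**
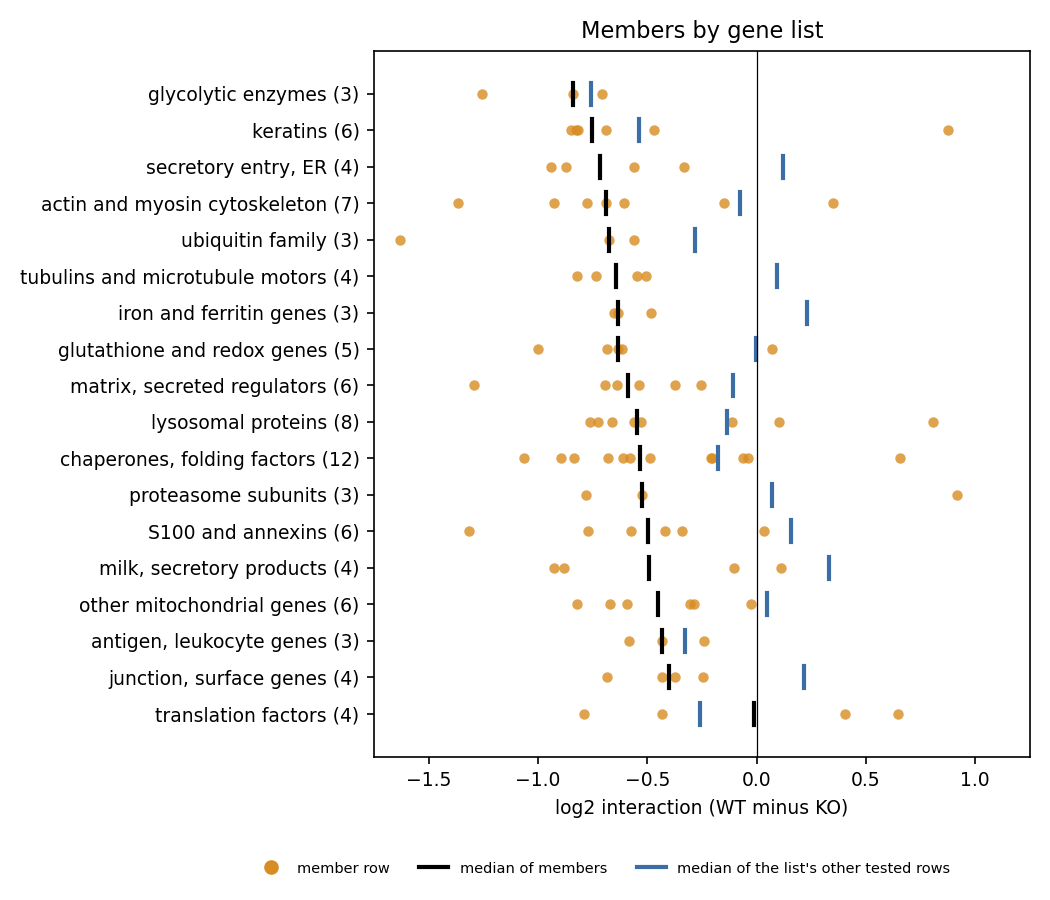
The authors' log2 interaction (WT minus KO) of the members in each gene list with at least 3 members, as orange points, with the number of rows in brackets. Black bars are the medians of the members and blue bars those of the list's other tested rows. The black bar lies left of 0 in every list drawn, closest to 0 for translation factors, and left of the blue bar in all lists drawn except translation factors. Lists of 2 members are not drawn, and not all of them lay below 0. Their medians were 1.64 for homeobox, SOX and forkhead factors and 0.60 for immediate early genes. For chemokines and cytokines the median was -0.11, and for splicing proteins -0.35.

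The lowest recovery was shared by both genotypes. At least 2 on the log2 scale below Input in both were 11 members (4.80%), against 3.77% of the other tested rows, so this share was close to that of the rest. Cmtm8, a MARVEL-domain membrane protein, had authors' log2 values of 3.88 in KO IP, 3.97 in WT IP, 7.50 in KO Input and 7.24 in WT Input. Ift20, which carries cargo to cilia, had 3.73 in KO IP, 4.03 in WT IP, 6.89 in KO Input and 7.002 in WT Input. Klf5, a Krüppel-like transcription factor of epithelia, had 3.10 in KO IP, 3.87 in WT IP, 6.62 in KO Input and 6.55 in WT Input on a row of 76 bases. In all 3 both IPs lay more than 2 below both Inputs.

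Proser2 had 4.42 in KO IP, 4.08 in WT IP, 6.99 in KO Input and 6.96 in WT Input. Nfkb2, the precursor of the NF-kappaB subunit p52, had 4.66 in KO IP, 4.44 in WT IP, 6.97 in KO Input and 7.05 in WT Input. Itgb4, the integrin chain of hemidesmosomes, had 5.24 in KO IP, 4.83 in WT IP, 7.45 in KO Input and 7.27 in WT Input. The interactions of these rows were smaller than their standard errors, at 0.09 ± 1.23 for Cmtm8, 0.18 ± 0.68 for Ift20, -0.29 ± 0.65 for Proser2, -0.31 ± 0.58 for Nfkb2 and -0.25 ± 0.53 for Itgb4 in the authors' deposited table. The standard error of Cmtm8 was the largest of the members. Klf5, Eif3e, Slc35b1 and Nsfl1c were less depleted in WT than in KO, by 0.90, 0.65, 0.91 and 0.58 in the authors' deposited table, and none of these passed the test.

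At the other end, 5 members (2.18%) were at least 1 above Input in both genotypes, against 15.7% of the other tested rows. They were the Hspa1b row, Pdia4, Scarb2, an alternative row of Ppp1cb and the gene model Gm26992, whose interval lies within Xist and Tsix in RefSeq. Scarb2, a membrane protein of lysosomes, had 6.64 in KO IP, 7.04 in WT IP, 5.02 in KO Input and 5.13 in WT Input. The Ppp1cb row, of a catalytic subunit of protein phosphatase 1, had 6.56 in KO IP, 6.53 in WT IP, 4.07 in KO Input and 3.57 in WT Input, the highest recovery of the members. Its full row of 4465 bases, which contains it, had an interaction of 0.04 where the short one had 0.47 ± 0.65 in the authors' deposited table.

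Other short rows also lie inside a longer one. In the authors' deposited table the short and long interactions were 0.30 and 0.27 for Jun, an immediate early transcription factor, -0.49 and -0.44 for Hsph1, a large heat shock protein, and -0.34 and -0.13 for Kdelr1, the receptor that returns proteins to the endoplasmic reticulum. Another 2 pairs differed in sign in the authors' deposited table. The gene model Gm20521 had 0.77 on 81 bases against -0.22 for the 874-base row around it, and a 280-base row of D17H6S56E-5 had -0.25 against 0.23 for a 950-base row. Nested rows share reads, so any likeness is partly built in. In all, 33 members overlap another row, 20 of them on the same strand and 14 on the opposite strand. Whether counting used strand is not stated in the sources used here, so reads of opposite-strand pairs such as Ctsz and Nelfcd or Nfkb2 and Psd cannot be told apart in the bases they share. Tomm6 shares 270 bases with the gene model Gm21981, also a member. Rcn3 entered as 2 members on the same 343 bases with the same values, so 1 region is counted as 2 members.

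In Input, KO minus WT ran between -0.80 and 0.70 over the members. The lowest values were those of Cd14, a co-receptor for bacterial lipopolysaccharide, Mgst1, a microsomal glutathione transferase, and Krt5. Cd14 had authors' log2 values of 4.97 in KO IP, 5.94 in WT IP, 5.16 in KO Input and 5.96 in WT Input. Mgst1 had 5.83 in KO IP, 6.58 in WT IP, 5.82 in KO Input and 6.51 in WT Input. In both, IP and Input were lower in KO by similar amounts, and their interactions were 0.24 ± 0.64 and 0.07 ± 0.55 in the authors' deposited table. Clta, a clathrin light chain, had 5.57 in KO IP, 5.80 in WT IP, 5.94 in KO Input and 6.46 in WT Input.

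Interactions next to the limits of the rule were mixed in sign, except just outside the count limit, where the rows named all lay below 0. Just inside 400 bases were Irx3 at 1.13, Ypel3 at -0.33 and Epn1 at -0.67, and just outside were Plaur at 0.46, Sec31a at -0.47 and Spidr at 0.18, as interactions in the authors' deposited table. Just inside the count limit were Atp6v1h at 0.10, Eif1b at 0.41 and Cd248 at -1.16, and just outside were Gipc2 at -0.46, Ngfrap1 at -0.93 and Armcx2 at -0.28 in the authors' deposited table. The shortest member, the Jun row of 30 bases, had 6.89 in KO IP, 6.91 in WT IP, 6.81 in KO Input and 6.53 in WT Input, and Atf4, a stress-response transcription factor, had 5.40 in KO IP, 5.42 in WT IP, 5.89 in KO Input and 5.59 in WT Input on 80 bases.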

How the data were processed

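RNA immunoprecipitation sequencing (RIP-seq) gave 8 libraries in 4 groups of 2. Bowtie2 2.2.2, Bowtie 0.12.9, DESeq2 and the mouse build mm10 appear in the submitters' processing notes, with no role or order. The name of the deposited table carries Bowtie2 and a mapping quality term, whose use is not explained. Beyond that, how reads were counted, with or without strand, and where multiply mapping reads went are points not given in the sources used here. Per the file headers, the deposited table holds for each 3' UTR row a log2 value per group, a mean normalized count, which is a signal averaged over all libraries, and DESeq2's log2 fold change, standard error, Wald score, p-value and adjusted p-value. These were used as the authors deposited them, and the group log2 values carry no error. Recomputation returned the score as fold change over standard error, and the p-value as the two-sided Wald value of that score. It returned the adjusted p-value by the Benjamini-Hochberg method over 5327 rows, whose lowest mean count was 42.9. The interaction's direction, WT minus KO, follows from a Spearman correlation of 0.998 with the difference of the 4 group values.

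The 8 columns per library are named by sequencing index, which the labels do not pair with samples, so they were not used and depth per library is unknown here. The planned quasi-likelihood fit was therefore not made, and the authors' Wald test is the test used. Only the authors' standard errors give precision, and 95% intervals extend 1.96 standard errors on either side of an estimate. Differences of group values were counted at a size of 1. Named members were those past the threshold, the 12 with the smallest p in each direction, the 6 most extreme in each group difference, the 10 with the highest count, the 6 shortest, up to 4 per gene list and those next to the limits, passing over gene models. A few of them are not reported here. Members in patterns of 11 or fewer, and those in lists, were also named after their values were seen. The members and lists were chosen with earlier results of these data known. Alternatives were other length and count limits, difference sizes, adjustments and centring. RefSeq names matched 221 members. Scripts ran in Python 3.11.15 with pandas 2.3.3, numpy 2.4.6 and scipy 1.17.1, and figures were drawn with matplotlib 3.10.9. The adjustment was tested on simulated interactions with the authors' standard errors over 5327 rows, 200 of them changed. Changes of 1, 2 and 3 on the log2 scale were recovered in 4.71%, 77.6% and 98.6% of the changed rows. Most true interactions of 1 would thus not pass.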

Additional observations from a re-analysis of the deposited data

Results flagged for a closer look

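The interaction of Sox18, at 2.14 on the log2 scale, WT minus KO, in the authors' deposited table, met the rule that a test of the difference itself finds IP over Input to differ between the genotypes. The authors' log2 values were 4.71 in KO IP, 6.94 in WT IP, 4.69 in KO Input and 4.83 in WT Input, so the WT IP was the value that stood apart. Which libraries carry it cannot be told from group values.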

How the results depend on the processing

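No paired analysis was possible because the columns per library are named by sequencing index alone and the labels do not pair them with samples, although each group holds 1 library of RIP experiment 2 and 1 of experiment 3. Whether the authors' test blocks on experiment is unknown here. Leaving out a replicate, edgeR and DESeq2 fits of counts were not run for the same reason, so depth and single libraries could not be weighed. The median interaction of -0.41 stayed between -0.48 and -0.39 under other length and count limits, with ribosomal and respiratory rows kept in, without overlapping rows or gene models, and from the 4 group values. The 1 member higher in WT became 0 with the tested rows' median subtracted. There Sox18 was at 1.91, with an adjusted p of 0.163 by the Wald test recomputed on the subtracted values. The count was also 0 with every row that has a p in the adjustment, where the Wald p of Sox18, adjusted anew, was 0.109. It was 0 under 300 bases or with a count of at least 100, where Sox18 is not among the 121 and 53 members. KO IP minus WT IP of at least 1 counted 12 members, and 85 at a size of 0.5, 1 at 1.5, 6 under 300 bases and 4 at a count of 100. For -1 or less it counted 7, and 25, 2, 1 and 1 in that order, with 13 under 500 bases. The Input difference counted 0 each way, and 3 higher and 5 lower at 0.5. IP minus Input in KO counted 8 above, and 24 at 0.5, 5 at 1.5 and 4 at a count of 100, and 38 below, with 92, 25, 18 under 300 bases and 5 at a count of 100. In WT it counted 14 above, and 6 at 1.5, 9 with the median subtracted, 7 under 300 bases and 3 at a count of 100, and 92 below, with 150 at 0.5, 33 at 1.5, 46 under 300 bases and 11 at a count of 100. Of the 112 named members, 6 changed sign with the median subtracted, Mgst1 to -0.16, Cmtm8 to -0.14, Ift20 to -0.0522, Hnrnpl to -0.22, Glycam1 to -0.12 and Atp6v1h to -0.13, and Hnrnpl also from the group values, to -0.0047. The causes were not tested.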
